A study of Sus scrofa with 6 samples.

Results

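The ribosomal protein genes were taken as the rows of the deposited gene table that carry KEGG's ribosome pathway code, with genes of the mitochondrial genome and of the Y chromosome left out. The rule holds 124 of the 24358 genes in the table. Of these, 87 encode cytosolic proteins (54 of the large and 33 of the small subunit) and 37 encode mitochondrial proteins (26 of the large and 11 of the small subunit). The cytosolic rows comprise 79 ribosomal proteins, 6 further copies that the table describes only as 60S or 40S proteins, 1 second row described as L13a, and *RSL24D1*, which encodes a biogenesis factor with an L24 domain. *RPL18*, *RPS14*, *RPL7L1* and 35 further *MRPL* and *MRPS* genes carry no such code and are given only for comparison. The members lie on 16 (cytosolic) and 12 (mitochondrial) chromosomes, and the table's coordinates overlapped the RefSeq gene of the same symbol in the pig assembly Sscrofa11.1 for all 117 members with such a gene. The table itself names no build.

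RNA was sequenced from 6 porcine embryos, 1 library per embryo, collected at day 5 and called blastocysts in the labels. The 3 control embryos received no injection, and the 3 *CARM1* KD embryos grew from oocytes that at the MII stage received about 10 pl of 50 μM siRNA against 3 sites of *CARM1*, the arginine methyltransferase whose role in blastocyst formation the study examined. No library here is from an embryo injected with a control siRNA, so that injection and knockdown cannot be told apart. Whether the embryos were parthenogenetic or fertilized could not be settled from the labels. Y-linked genes summed to 178 and 215 FPKM in *CARM1* KD 1 and 2 and to 9.97 to 28.1 FPKM in the others, and the origin of the embryos was not tested with them. Library totals ranged from 26341924 to 41727594 estimated counts.

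*CARM1* itself had 1.26 to 4.54 FPKM (fragments per kilobase of transcript, scaled to the library total) in control 1, 2 and 3 and 0.130 to 0.274 FPKM in the *CARM1* KD embryos. The embryos differed in other ways. The summed level of 9 oocyte markers, *WEE2* and *BMP15* among them, was 2732 FPKM in control 2, 1313 FPKM in *CARM1* KD 3 and 18.4 to 458 FPKM elsewhere. Trophectoderm markers (8 genes) summed to 5.17 and 49.6 FPKM in those 2 embryos and to 98.8 to 348 FPKM in the others. *KRT18* was at 0 in control 2 and *CARM1* KD 3. In *CARM1* KD 3, 6 of the 8 had a count of 0. The rest were not low there: *TEAD4* was at its highest (14.5 FPKM), and *TFAP2C*, at 35.1 FPKM, was above *CARM1* KD 2 (27.9 FPKM). *CDX2* was also at 0 in control 1, control 3 and *CARM1* KD 1, and *HAND1* in all *CARM1* KD embryos. In control 2 *TFAP2C* and *TEAD4* were at their lowest, but *CDX2* was at its highest (0.445 FPKM). *GATA2*, at 0.536 FPKM in control 2, was above control 1 and *CARM1* KD 2 and 3 and below control 3 and *CARM1* KD 1. Inner cell mass markers (4 found of 6 listed) summed to 5.32 FPKM in control 2 and to 38.8 to 62.2 FPKM elsewhere. Primitive endoderm markers (4 genes) summed to 9.75 FPKM in control 2 and to 14.0 to 54.8 FPKM elsewhere. Of these, *SOX17* was at 0 in all 6 embryos, and *GATA4* was highest in *CARM1* KD 3 (9.91 FPKM) and control 2 (9.13 FPKM). Cumulus and granulosa markers summed to at most 0.20 FPKM. Transcripts of the mitochondrial genome made up 46.0% of the counts of control 2 and 14.5% to 23.9% of the others. Control 2 and *CARM1* KD 3 therefore stand apart from the other embryos of their groups, and the results below are given with and without them.

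Ribosomal proteins join with ribosomal RNA to form the ribosome: those of the large subunit surround the centre that joins amino acids, and those of the small subunit hold the mRNA and its decoding site. Cytosolic ribosomal protein mRNAs begin with a run of pyrimidines that lets the cell regulate their translation together, and mammalian oocytes store ribosomes and mRNA on which the embryo draws until its own genome is transcribed. Mitochondrial ribosomes are built from a separate set of nuclear-encoded proteins and translate the few mRNAs of the mitochondrial genome.

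Ribosomal protein genes differed between embryos of the same group. Each member's FPKM was expressed as a percentage of its median over the 6 embryos. For the 82 cytosolic members that reached 1 FPKM in 2 or more embryos, the median was 109%, 2.77% and 106% in control 1, 2 and 3, and 110%, 108% and 54.1% in *CARM1* KD 1, 2 and 3. Control 2 was thus far below every other embryo and *CARM1* KD 3 was between it and the remaining 4 embryos of both groups. Of all 10639 genes that passed the same filter, 10544 have a 6-embryo median above 0. Over these the median was 108%, 61.4%, 94.7%, 97.5%, 95.9% and 121% in the same order. *CARM1* KD 3 was thus low for the cytosolic members and the highest embryo for genes in general. The 2 embryos with low ribosomal protein levels are those with the highest summed oocyte and lowest summed trophectoderm marker levels. The part of either in the result was not tested. FPKM are relative to the library total, and in a whole embryo a smaller share of cells of a type that expresses these genes and a smaller share of their RNA per cell cannot be told apart.

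**Figure D1:**
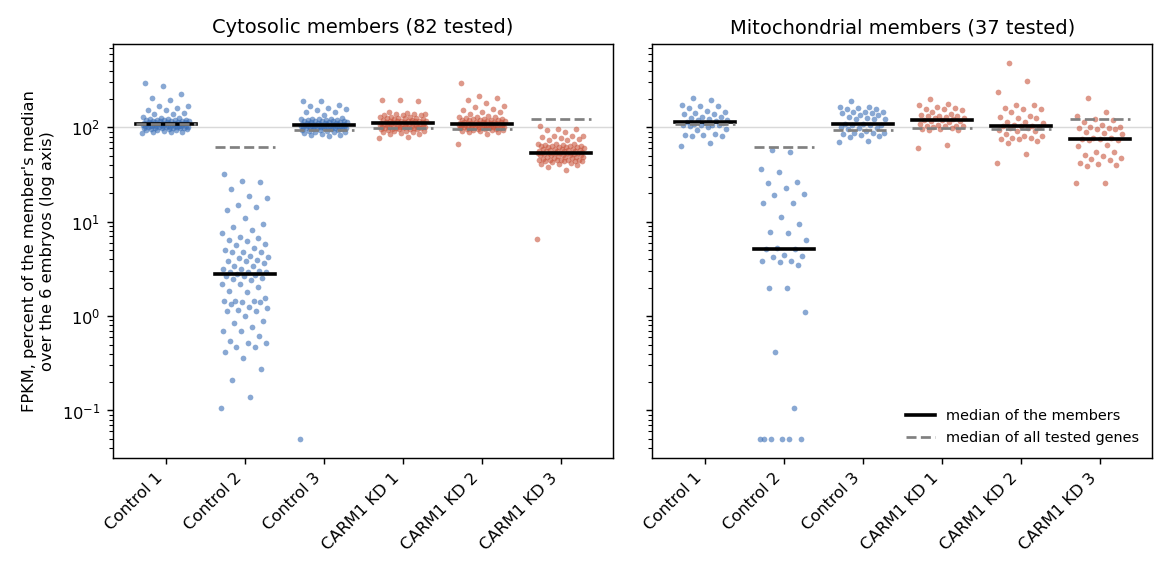
FPKM of each tested ribosomal protein gene in each embryo as a percentage of its median over the 6 embryos (log axis), cytosolic on the left and mitochondrial on the right, with control embryos in blue and *CARM1* KD embryos in red. Each point is 1 gene, and black bars are medians of the members. Dashed grey bars are medians of the 10544 tested genes with a median above 0, and points at a value of 0 are drawn at 0.05%. The cytosolic medians are 2.77% in control 2 and 54.1% in *CARM1* KD 3, and 106% to 110% in the other 4 embryos.

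The cytosolic members moved together in 5 of the embryos and scattered in control 2. The quartiles of the cytosolic members were 102% and 119% in control 1, 98.9% and 117% in control 3, 98.8% and 119% in *CARM1* KD 1, 101% and 121% in *CARM1* KD 2 and 47.7% and 63.4% in *CARM1* KD 3. In control 2 the quartiles were 1.17% and 5.20%. The quartiles over all tested genes were much wider in each embryo, for example 56.3% to 128% in control 3 and 74.6% to 219% in *CARM1* KD 3. The mitochondrial members were less alike than the cytosolic ones. Their quartiles were 100% and 140% in control 1, beside 87.4% and 136% over all tested genes, and 49.9% and 99.0% in *CARM1* KD 3. Control 2 held the lowest value for 81 of the 82 cytosolic members, against 4968 of the 10544 tested genes with a median above 0. *CARM1* KD 3 held the highest for 0 of the cytosolic members, against 2827 of those 10544 genes.

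The summed level gave the same picture. The cytosolic members summed to 65611, 2211 and 64358 FPKM in control 1, 2 and 3 and to 65926, 65262 and 32315 FPKM in *CARM1* KD 1, 2 and 3. Hence 4 embryos from both groups lay between 64358 and 65926 FPKM, and control 2 reached 3.37% and *CARM1* KD 3 49.3% of the sum in control 1. As a share of all estimated counts the cytosolic members took 10.4%, 0.44%, 10.1%, 10.5%, 10.8% and 5.14%, and 12.5%, 0.81%, 12.4%, 12.2%, 14.2% and 6.48% of the counts outside the mitochondrial genome, so that the gap in control 2 remained when its large share of mitochondrial transcripts was set aside. The ratio of large to small subunit FPKM was 0.999, 0.824 and 1.02 in control 1, 2 and 3 and 0.796, 0.876 and 0.913 in the *CARM1* KD embryos, with control 2 inside the range of the *CARM1* KD embryos.

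**Figure D2:**
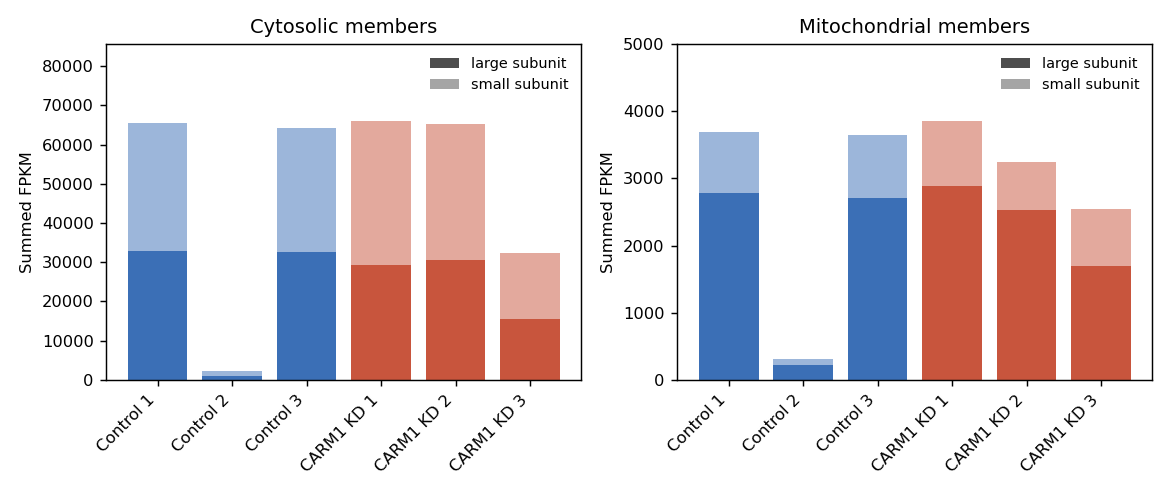
Summed FPKM of the cytosolic (left) and mitochondrial (right) ribosomal protein genes in each embryo, with the large subunit in the darker and the small subunit in the lighter shade, control embryos in blue and *CARM1* KD embryos in red. The cytosolic sum is 2211 FPKM in control 2, 32315 FPKM in *CARM1* KD 3 and 64358 FPKM or more elsewhere, and the mitochondrial sum is 307 FPKM in control 2 and at least 2538 FPKM elsewhere.

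Among the cytosolic members, the 8 of highest mean FPKM were *RPS21*, *RPS28*, *RPL39*, *RPS15*, *RPS18*, *RPS16*, *RPL11* and *RPS23*, which together held 26.8% to 31.1% of the cytosolic FPKM of each embryo. *RPS21* (ENSSSCG00000021825, chr17:61763564-61764815 in the deposited table), a small subunit protein, had 2618, 72.7 and 3376 FPKM in control 1, 2 and 3 and 3212, 3329 and 1712 FPKM in *CARM1* KD 1, 2 and 3. *RPS28*, which lies at the mRNA exit of the small subunit, had 2984, 160 and 2611 FPKM and 3736, 2888 and 1566 FPKM in the same order. For both genes control 2 was below every other embryo, *CARM1* KD 3 was the lowest of its group, and the groups overlapped. *RPS16* had 1833, 9.59 and 1843 FPKM in the control and 2311, 2022 and 1364 FPKM in the *CARM1* KD embryos, and *RPL11*, which holds the 5S ribosomal RNA in the large subunit and can bind MDM2 when free, had 1941, 23.0 and 1953 FPKM and 1999, 1786 and 1072 FPKM. The mean of *RPS21* was 2022 ± 1730.5 FPKM in the control and 2751 ± 902 FPKM in the *CARM1* KD embryos (SD, n = 3 each). The order of the members by level was nearly the same in every embryo but control 2: against control 1, Spearman's rho over the 82 members was 0.98 in control 3 and 0.96 in each *CARM1* KD embryo, and 0.50 in control 2. These are correlations across genes of paired libraries, and genes are not replicates.

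The proteins of the stalk, the flexible arm of the large subunit that recruits elongation factors, were less reduced in control 2 than most members. *RPLP0* (chr14:40219124-40223943), the base of the stalk, had 765, 120 and 564 FPKM in control 1, 2 and 3 and 1251, 1111 and 426 FPKM in the *CARM1* KD embryos. *RPLP1* had 1113, 160 and 1388 FPKM and 1132, 1138 and 668 FPKM, and *RPLP2* had 866, 45.7 and 1104 FPKM and 1060, 1086 and 594 FPKM. Control 2 therefore held 14.3% and 4.74% of the 6-embryo median of *RPLP1* and *RPLP2*, and a larger share of that of *RPLP0*, against 2.77% for the median cytosolic member. *RPSA*, a small subunit protein also known as a laminin receptor, had 315, 8.41 and 250 FPKM and 552, 409 and 142 FPKM. *RPLP0* and *RPSA* were higher in *CARM1* KD 1 and 2 than in any control embryo, and *CARM1* KD 3 was below control 1 and 3 for each.

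Both members that the rule holds among the ubiquitin-like fusion genes were present. *RPS27A*, which encodes ubiquitin fused to the S27a protein, had 1513, 63.5 and 1691 FPKM in the control and 2035, 1723 and 758 FPKM in the *CARM1* KD embryos. *FAU*, which encodes a ubiquitin-like protein fused to S30, had 219, 47.0 and 364 FPKM and 290, 282 and 186 FPKM, and kept 18.8% of its median in control 2. The *FAU* row holds a transcript of 21 exons, so it may span a neighbouring gene, and its value is uncertain.

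Paralogs of the cytosolic proteins differed in how low they were in control 2. *RPL22L1*, the paralog of the large subunit protein *RPL22*, had 25.5, 7.57 and 29.8 FPKM in the control and 31.7, 30.9 and 27.5 FPKM in the *CARM1* KD embryos. *RPL22* had 304, 10.3 and 298 FPKM and 347, 240 and 128 FPKM. The paralog therefore made up 42.5% of the pair's FPKM in control 2, 17.8% in *CARM1* KD 3 and 7.73% to 11.4% in the other 4 embryos. *RPL26L1* made up 80.3% of the FPKM of *RPL26* and *RPL26L1* in control 2, 56.9% in *CARM1* KD 3 and 44.7% to 50.6% elsewhere. *RPS27L* went the other way, with 15.9% of the FPKM of *RPS27* and *RPS27L* in control 2, 29.9% in *CARM1* KD 3 and 21.2% to 32.6% elsewhere. *RPL36AL* made up 78.0% of the FPKM of *RPL36A* and *RPL36AL* in control 2, 14.5% in *CARM1* KD 3 and 13.9% to 24.8% elsewhere. *RPL7* had 1102, 29.3 and 1177 FPKM and 1170, 976 and 453 FPKM, and its relative *RPL7L1*, outside the rule, had 138, 0.0323 and 158 FPKM and 185, 157 and 104 FPKM. *RPL39L* was not analysed here. *RPL3L*, the muscle form of *RPL3*, reached at most 0.991 FPKM in any embryo and was not tested, and *RPL3* had 91.1, 0.774 and 45.1 FPKM and 60.2, 111 and 47.8 FPKM.

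*RPL10L*, the single-exon copy of the X-linked *RPL10*, did not follow the pattern of the other members. It had 79.0, 0.138 and 0 FPKM in control 1, 2 and 3 and 55.9, 84.6 and 1.89 FPKM in *CARM1* KD 1, 2 and 3, so that it was read in some embryos of each group and nearly absent from others. It was the only tested cytosolic member whose lowest value lay in an embryo other than control 2. The count of 0 in control 3 allows up to 3 of the library's 26341924 counts. Reads of *RPL10L* and *RPL10* may be shared, since the copies are alike in sequence, and the same holds for the 6 further copies. Of these 6, 2 (ENSSSCG00000031482, described as an L18 gene, and ENSSSCG00000040696, described as an S14 gene) had a count of 0 in all 6 embryos, and 4 have a single exon.

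A few members kept more of their level than the rest in both embryos that stand apart. They were chosen after their values were seen. *RPS4X*, the X-linked small subunit protein, kept 31.8% of its median in control 2 and 95.9% in *CARM1* KD 3, *RPS24*, another small subunit protein, kept 27.1% and 103%, and *RPL22L1* kept 26.4% and 96.0%. These 3 genes ranked highest of the 82 cytosolic members in control 2 and again in *CARM1* KD 3. At the other end in control 2 were *RPL23* at 0.105% (44 counts), *RPL10* at 0.138% and *RPL36A* at 0.212%, which kept 40.3%, 48.8% and 75.2% in *CARM1* KD 3. Over 81 cytosolic members, *RPL10L* left out, Spearman's rho between the percentages in the 2 embryos was 0.29, a description across genes whose percentages share a denominator. In control 2, rho was 0.13 with the length of the leading transcript and -0.21 with the mean FPKM.

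**Figure D3:**
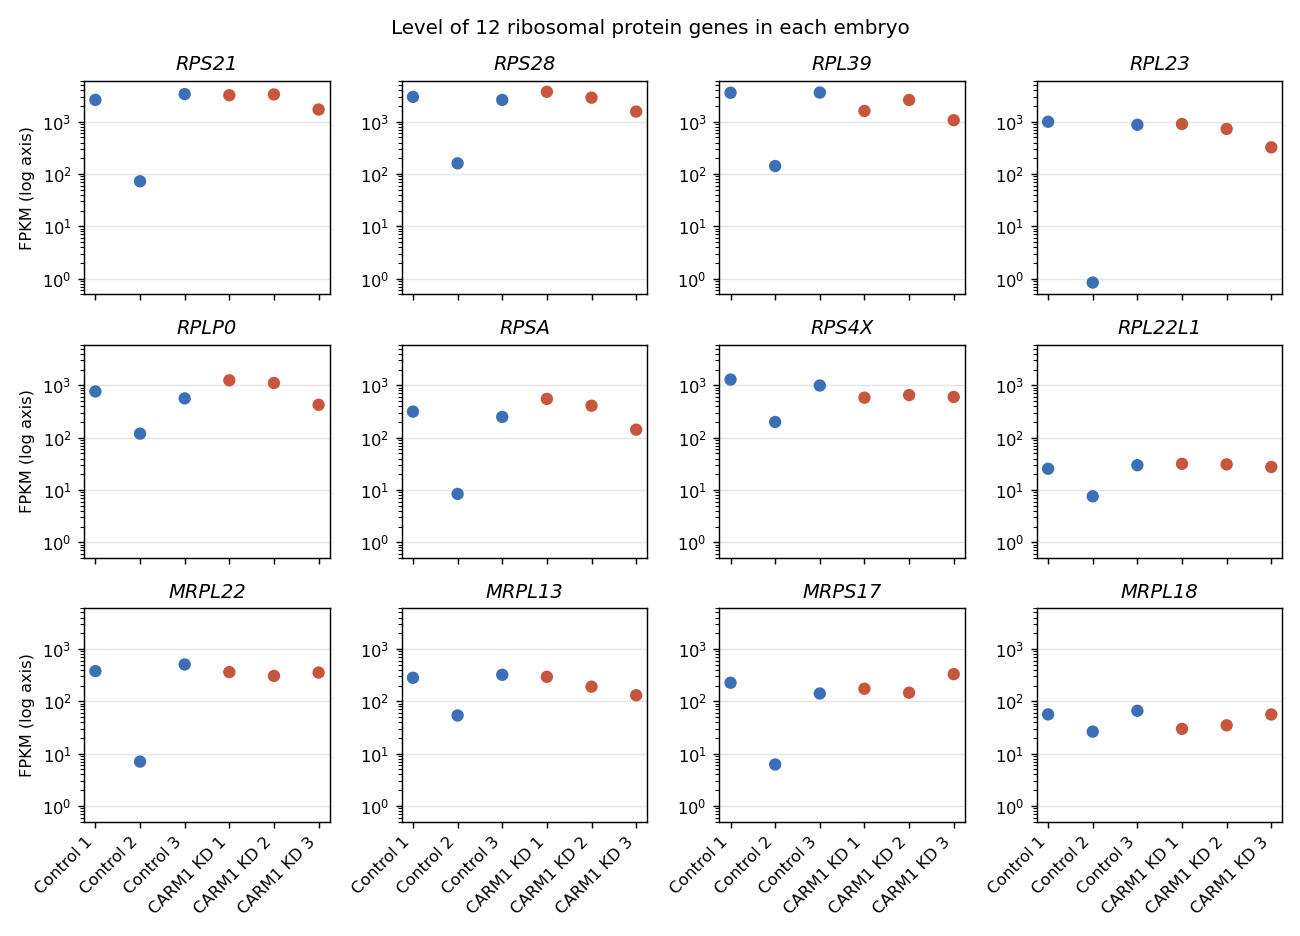
FPKM (log axis) of 12 ribosomal protein genes in each embryo, with control embryos in blue and *CARM1* KD embryos in red, 1 point per embryo. *RPL23* is at 0.843 FPKM in control 2, while *RPS4X* is at 199 FPKM and *MRPL18* at 26.4 FPKM there.

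The 4 X-linked cytosolic members, *RPL10*, *RPL36A*, *RPL39* and *RPS4X*, differed in level between embryos in which the autosomal members were alike. *RPL39*, which lines the tunnel through which the new protein leaves, had 3580, 142 and 3615 FPKM in the control and 1607, 2604 and 1069 FPKM in the *CARM1* KD embryos. *RPL36A* had 2519, 2.35 and 2104 FPKM and 1095, 1132 and 838 FPKM, and *RPS4X* (chrX:58149198-58155188) had 1291, 199 and 995 FPKM and 582, 653 and 602 FPKM. For each of these 3 genes control 1 and control 3 were above all *CARM1* KD embryos and control 2 was below them. *RPL10*, next to the tunnel's start, had 992, 0.897 and 749 FPKM and 552, 907 and 317 FPKM, with *CARM1* KD 2 between control 1 and control 3.

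The median of the 4 X-linked members was 188%, 3.48% and 165% of the 6-embryo median in control 1, 2 and 3 and 88.8%, 114% and 63.0% in *CARM1* KD 1, 2 and 3. The autosomal members had 108%, 2.77%, 105%, 110%, 108% and 54.1% in the same order. Over the 429 of 434 tested X-linked genes with a median above 0, the medians were 147%, 48.5%, 101%, 84.0%, 84.0% and 108%. Y-linked genes summed to 178 and 215 FPKM in *CARM1* KD 1 and 2 and to 9.97 to 28.1 FPKM elsewhere, and the part of embryo sex in the X-linked values was not tested. The autosomal single-exon copies of *RPL39*, ENSSSCG00000038467 and ENSSSCG00000040703, had 159, 18.2 and 139 FPKM and 40.7, 1.14 and 21.8 FPKM in control 1, 2 and 3 and 70.2, 94.1 and 54.4 FPKM and 12.4, 15.1 and 10.7 FPKM in the *CARM1* KD embryos, in the order of *RPL39* itself apart from the highest control embryo, and may hold its reads.

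**Figure D4:**
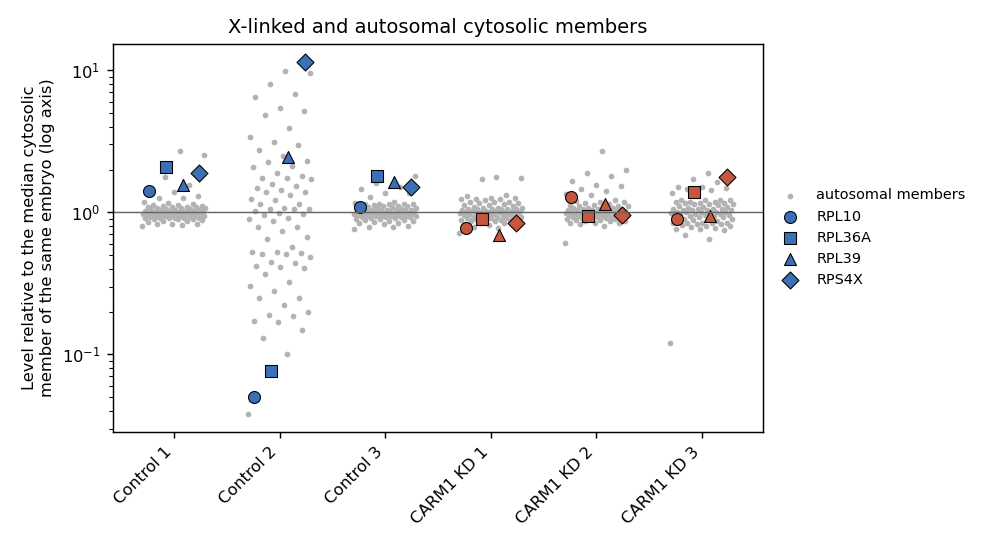
Level of each tested cytosolic ribosomal protein gene relative to the median cytosolic member of the same embryo (log axis), with autosomal members in grey and the 4 X-linked members as symbols, blue in control and red in *CARM1* KD embryos. Values of 0 are not drawn. The X-linked members lie at 1.09 to 2.08 times the median percentage in control 1 and 3 and at 0.693 to 1.29 times in *CARM1* KD 1 and 2. They lie at 0.901 to 1.77 times in *CARM1* KD 3, which overlaps control 1 and 3, and from 0.0499 to 11.5 times in control 2.

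The 37 mitochondrial members all passed the filter. Their median was 113%, 5.11% and 110% of the 6-embryo median in control 1, 2 and 3 and 119%, 104% and 75.5% in *CARM1* KD 1, 2 and 3, and control 2 held the lowest value for 36 of them. They summed to 3699, 307 and 3645 FPKM in the control and 3850, 3239 and 2538 FPKM in the *CARM1* KD embryos. The cytosolic sum was 17.7, 7.21 and 17.7 times the mitochondrial sum in control 1, 2 and 3 and 17.1, 20.2 and 12.7 times in the *CARM1* KD embryos, lowest in the 2 embryos that stand apart, and the difference between the classes was not tested. In control 2 the small subunit kept 11.2% and the large subunit 4.41% (medians of 11 and 26 members).

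*MRPL22*, a large subunit protein, had the highest mean level of the mitochondrial members, with 379, 7.05 and 508 FPKM in the control and 363, 307 and 355 FPKM in the *CARM1* KD embryos. Control 2 was far below the other 5 embryos, among which the groups overlapped. *MRPL13* had 282, 53.7 and 322 FPKM and 294, 191 and 131 FPKM, and was less reduced in control 2. *MRPL33*, *MRPL27* and *MRPL17*, of the same subunit, and *MRPS17*, of the small subunit, were the others of the 6 with the highest mean level. *MRPS17* had 227, 6.21 and 141 FPKM and 174, 146 and 331 FPKM, the only member of either class with its highest value in *CARM1* KD 3. A count of 0 in control 2 was found for 6 members, *MRPL24*, *MRPL27*, *MRPL28*, *MRPL30*, *MRPL34* and *MRPS15*, which allows up to 3 of the library's 29606920 counts in each, although *MRPL27* reached 122 to 301 FPKM in the other embryos. *MRPL18* and *MRPS14*, the latter chosen after its values were seen, kept 58.0% and 54.4% of their median in control 2 and 123% and 145% in *CARM1* KD 3. *MRPL18* had 56.4, 26.4 and 66.0 FPKM in the control and 29.8, 34.8 and 56.2 FPKM in the *CARM1* KD embryos, and *MRPS14* had 46.6, 17.2 and 22.9 FPKM and 40.3, 13.2 and 45.9 FPKM.

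The comparison that the design implies, *CARM1* KD against control, gave no member that passed the test. Tested by edgeR (quasi-likelihood) among all 10639 genes, 0 of 82 cytosolic and 0 of 37 mitochondrial members passed an adjusted p under 0.05, against 0% of all genes, and 0 and 0 passed an unadjusted p under 0.05, against 0.686% of all genes. DESeq2 and limma on log2(FPKM + 1) also gave 0 members at an adjusted and at an unadjusted p under 0.05. The shares of all genes from DESeq2 and limma are not given here. The FPKM of the groups did not overlap for 0 of the 119 tested members, against 4.89% of all genes.

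Fitted log2 fold changes were above 0 for 75 and below 0 for 7 cytosolic members, with a median of 0.29, and above 0 for 30 and below 0 for 7 mitochondrial members, with a median of 0.36, beside a median of 0.10 over all genes. The small subunit had a median of 0.48 (32 members) and the large subunit one of 0.22 (50 members) among the cytosolic members. The standard errors ranged from 0.74 to 2.34 for the cytosolic members, and the fold change was smaller than its standard error for all 82 of them and for 35 of the 37 mitochondrial members. The smallest unadjusted p among the cytosolic members was that of *RPLP0*, whose log2 fold change was 0.96 (standard error 1.04, adjusted p = 0.9999 from edgeR), followed by *RPS2*, *RPSA*, *RPL13*, *RPL22L1*, *RPS7*, *RPL13A* and *RPL8*. *RPS2* had 251, 6.49 and 195 FPKM in the control and 273, 477 and 175 FPKM in the *CARM1* KD embryos, and a fitted log2 fold change of 1.06 (standard error 1.28).

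Among the mitochondrial members the smallest p was that of *MRPL10*, with 8.88, 0.487 and 10.2 FPKM in the control and 11.3, 29.8 and 6.93 FPKM in the *CARM1* KD embryos, and a fitted log2 fold change of 1.34 (standard error 1.17, adjusted p = 0.9999 from edgeR). *MRPL12*, which sits in the stalk of the mitochondrial ribosome, had 12.7, 0.895 and 25.5 FPKM and 18.7, 47.5 and 21.5 FPKM, a log2 fold change of 1.13 (standard error 1.12). In both genes the groups overlapped, and *CARM1* KD 2 was the highest embryo. *MRPL28*, *MRPL18*, *MRPL36*, *MRPL35*, *MRPL9* and *MRPS17* came next. The members with values below 0 were *RPL34*, *RPL36A*, *RPL39*, *RPS4X*, *RSL24D1* and the copies of *RPL39* among the cytosolic, and *MRPL1*, *MRPL13*, *MRPL17*, *MRPL18*, *MRPL35*, *MRPS10* and *MRPS18C* among the mitochondrial members.

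The direction of the members as a group turned with 1 embryo. Without control 2, 13 cytosolic members were above and 69 below 0, with a median of -0.28, and 8 mitochondrial members were above and 29 below 0, with a median of -0.16. In that fit 0 members passed an unadjusted p under 0.05 (edgeR). Neither the median nor the share at that threshold over all genes is given here for the fit without control 2. Without control 2 and *CARM1* KD 3, an alternative added after the data were seen, 53 cytosolic members were above and 29 below 0 (median 0.10) and 21 and 16 mitochondrial ones (median 0.10), beside a median of 0.01 over all genes. In that fit of 2 embryos against 2, the standard errors were 0.32 to 1.95 for the cytosolic members, 0 members passed an adjusted p under 0.05, and 3 passed an unadjusted p under 0.05. These were *RPLP0*, with a log2 fold change of 0.93 (standard error 0.33), *RPSA*, with 0.85 (standard error 0.35), and *RPL36A*, with -0.96 (standard error 0.36), and their unadjusted p from edgeR was 0.0275, 0.0441 and 0.0331 (adjusted p = 1 for each). Over all genes 1.81% passed that threshold in this fit. It sets control 1 and 3, with Y-linked sums of 28.1 and 13.8 FPKM, against *CARM1* KD 1 and 2, with 178 and 215 FPKM, so that for the X-linked *RPL36A* this difference and the knockdown cannot be told apart there. Leaving out *CARM1* KD 1 or *CARM1* KD 2 gave cytosolic medians of 0.17 and 0.049 with all other embryos kept.

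**Figure D5:**
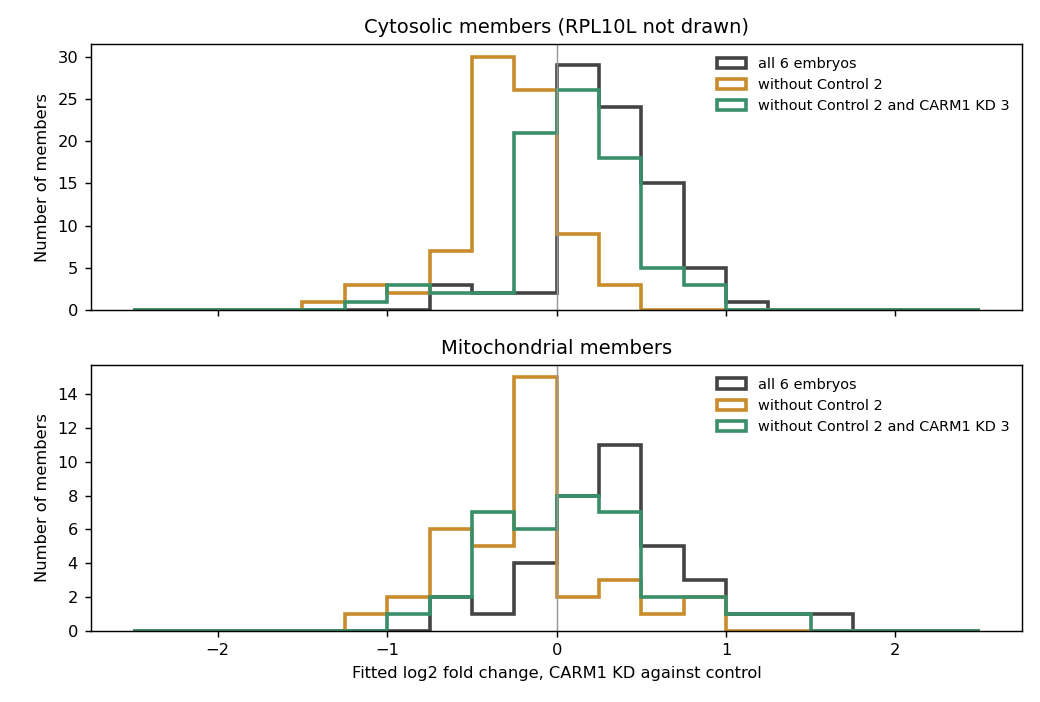
Number of cytosolic (top) and mitochondrial (bottom) ribosomal protein genes by fitted log2 fold change, *CARM1* KD against control, with all 6 embryos (dark grey), without control 2 (orange) and without control 2 and *CARM1* KD 3 (green). *RPL10L* is not drawn. The cytosolic medians are 0.29, -0.28 and 0.10 in that order.

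Transcripts were described only. Of the 124 members, 57 have 1 annotated transcript and 67 have more, of which 66 were read in some embryo. The leading transcript held over 90% of the counts of 33 of these members and under 60% in 9. Its share ranged by under 10 percentage points between embryos with at least 20 counts for 26 of 65 members and by over 50 points for 15. In *MRPL2*, for example, the leading transcript held 0% of the counts in the 3 control embryos and *CARM1* KD 3 and 99.8% and 100% in *CARM1* KD 1 and 2, and in *RPS24* it held 68.2% to 73.6% in 5 embryos and 0% in *CARM1* KD 1. Both genes were chosen after their values were seen. In control 1, control 3 and *CARM1* KD 3 all *MRPL2* counts were on a second transcript, and in control 2 on another. How the counts of overlapping transcripts were divided was not tested.

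The same percentages were taken for genes that work with the ribosome. The 35 further *MRPL* and *MRPS* genes, outside the rule, had medians of 117%, 12.1% and 98.4% in the control and 142%, 107% and 61.7% in the *CARM1* KD embryos, with 0 at an unadjusted p under 0.05 and a median log2 fold change of 0.41. Their 3 of highest mean level were *MRPL46*, *MRPL51* and *MRPL37*. *RPL18* and *RPS14*, which the rule misses, had 503, 1.64 and 533 FPKM and 1747, 40.8 and 1827 FPKM in the control and 553, 621 and 336 FPKM and 2855, 2596 and 1108 FPKM in the *CARM1* KD embryos, the pattern of the members.

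Of 15 listed genes whose mRNAs are known or reported to carry a 5' pyrimidine tract, the elongation factors among them, 12 were found and tested, with medians of 11.8% in control 2 and 80.3% in *CARM1* KD 3. *TPT1*, a translationally controlled protein, had 1137, 212 and 1000 FPKM and 960, 1183 and 1183 FPKM. *RACK1*, which sits on the small subunit and links it to signalling, had 760, 0.191 and 617 FPKM and 724, 824 and 351 FPKM, and *NPM1*, a nucleolar chaperone, had 457, 254 and 379 FPKM and 482, 294 and 296 FPKM. *RACK1* was low together with the ribosomal proteins in control 2 and *CARM1* KD 3, and *NPM1* lay between 254 and 482 FPKM in all 6.

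The 38 ribosome biogenesis genes found of 43 listed had a median of 13.7% in control 2 and of 106% in *CARM1* KD 3. *EIF6*, which keeps the subunits apart until the large one is mature, had 290, 2.59 and 479 FPKM and 506, 370 and 294 FPKM, and *BRIX1*, an assembly factor of the large subunit, had 223, 104 and 192 FPKM and 277, 106 and 213 FPKM. *NOP10*, of the particle that modifies ribosomal RNA, was the other of the 3 of highest level. For the 12 of 15 RNA polymerase I genes found, which transcribe the ribosomal RNA precursor, the median was 91.5% in control 2 and 162% in *CARM1* KD 3. *POLR1D*, *POLR1C* and *TAF1D* had the highest levels, and *POLR1D* had 336, 140 and 342 FPKM and 384, 289 and 251 FPKM. For the 33 mitochondrial translation genes found of 34, of which 31 were tested, the median was 9.59% and 94.4%, led by *CHCHD1*, *TFAM* and *TUFM*. In *CARM1* KD 3, therefore, the median was 54.1% for the cytosolic ribosomal proteins, 106% for the biogenesis list and 162% for the polymerase list, beside 121% over all genes. By summed level the polymerase list was lower there (422 FPKM) than in every embryo but control 2 (496 to 561 FPKM). The biogenesis sum, 2332 FPKM, lay between *CARM1* KD 2 (2196 FPKM) and control 1 (2368 FPKM). The difference between the lists was not tested. In none of these 4 lists did a gene pass an unadjusted p under 0.05 between the groups (12, 38, 12 and 31 genes, edgeR). The median log2 fold changes were 0.45, 0.38, 0.11 and 0.52. DESeq2 gave 1 mitochondrial translation gene at that threshold, and its share over all genes is not given here.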

How the data were processed

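Single porcine embryos were sequenced (3 control, 3 *CARM1* KD). Per the study's methods, cDNA was pre-amplified and fragmented before library preparation. The submitters' processing notes name fastp, HISAT2, StringTie and edgeR without versions and a human build, the methods name the pig genome and Cufflinks, and the tools that made the table are otherwise not stated. The deposited table holds, per transcript and gene, the authors' estimated counts and FPKM. Deposited FPKM values are normalized to length and library total by the authors, and those written as 0.0001 at a count of 0 were read as 0.

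Tests took in the 10639 genes that reached 1 FPKM in 2 or more embryos. The authors' estimated counts, whole numbers in the table, were fitted with edgeR 4.0.16 (TMM, quasi-likelihood F-test, 2 groups, no covariate, 4 residual degrees of freedom) in R 4.3.3, with Benjamini-Hochberg adjustment over all tested genes. limma 3.58.1 and DESeq2 1.42.0 were alternatives, as were other scalings, filters, library weights, a replicate block and leaving out embryos. Nothing says whether embryos of a group came from separate batches of oocytes, so p-values measure only the spread between these embryos. Embryo library totals were 26341924 to 41727594 counts, without molecular identifiers, so limits from a count of 0 cover counting error only.

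Named cytosolic genes were the 8 highest in mean FPKM, the 8 smallest in p, and fixed paralog pairs, stalk, *RPSA* and fusion genes. Named mitochondrial genes were the 6 highest and the 8 smallest in p, and 3 per related list. Members with a count of 0 in all embryos were also named. Members and lists were chosen with earlier results of these data known. Symbols for 17 of the 43 members listed only by identifier came from a name table. Reads of near-identical copies and of merged gene rows could have been divided arbitrarily.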

Additional observations from a re-analysis of the deposited data

How the results depend on the processing

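Of 17 alternatives, 0 gave a member an adjusted p under 0.05 and 2 gave any an unadjusted p under 0.05. The latter held for 1 cytosolic member without control 1 (*RPL10L*) and for 3 without control 2 and *CARM1* KD 3, an alternative chosen after seeing the data. The share of all genes at that threshold without control 1 is not given here, so *RPL10L* cannot be set against it. Leaving out embryos moved the median log2 fold change from -0.28 to 0.79 for the cytosolic and from -0.16 to 0.78 for the mitochondrial members, below 0 only without control 2. Library weights gave medians of 0.11 and 0.10, limma on log2(FPKM + 1) 1.44 and 1.12, and on log2(FPKM + 0.1) 1.49 and 1.23, beside 0.22 and 0.34 over all genes. *RPL39* turned positive under limma (0.42 and 0.43 with the larger and smaller pseudocount) and without control 3 (0.031), and ranged from -1.05 to 0.031 over the fits that leave out embryos. *RPS21* ranged from -0.16 to 1.13 and *MRPS17* from -0.10 to 1.29 over these fits, with -0.10 without control 2 and *CARM1* KD 3. The cause was not tested.

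Deviations of same-numbered embryos from their group means correlated at 0.17, -0.46 and -0.49. The 2 embryos that stand apart, control 2 and *CARM1* KD 3, carry different numbers and correlated at 0.52. As deviations within a group sum to 0, these values cannot show whether the numbers pair the samples. With the replicate number as a block, the medians were 0.80 and 0.81 and 0 members passed an unadjusted p under 0.05. Alternatives that need gene sequences were not run. With 3 embryos a group, of which 1 stands apart in each, fold changes smaller than the standard errors (medians 1.26 and 1.12) could not be detected. Members whose fold change exceeded its standard error did not pass either, so larger changes could also be missed.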
